A study of Mus musculus with 2 samples.

Results

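The 8 genes described here carry the hormone signals of the growth hormone, ghrelin, prolactin and somatostatin systems. They are the peptide genes Ghrh and Sst and the receptor genes Ghr, Ghsr, Prlr, Sstr1, Sstr2 and Sstr3, taken by symbol from the 32285 genes of the count matrix, in which each symbol had 1 row. The RNA came from nuclei of wild-type male C57BL/6J mice aged 10 to 12 weeks, which were untreated as far as the labels say. The tissue is labelled as the arcuate nucleus of the hypothalamus (ARC), and NeuN, an antigen found in the nuclei of neurons, was used to sort nuclei before capture on the 10x platform. All nuclei form 1 pooled gene expression library with 1 hashtag library, a hashtag being a barcoded antibody put on the nuclei of 1 preparation before pooling. The files name the 2 hashtags ARC and PVH, the second of which the labels do not mention, and neither tells the pooled mice apart. There was therefore 1 preparation per hashtag, no replicate and no test across nuclei.

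Growth hormone-releasing hormone, encoded by Ghrh, is made by arcuate neurons and drives the release of growth hormone from the pituitary, while somatostatin, encoded by Sst, restrains it. Growth hormone and prolactin act back on hypothalamic neurons through the related cytokine receptors encoded by Ghr and Prlr, which signal through the kinase Jak2 and the Stat5 transcription factors. Ghrelin, a hormone of the stomach, acts through the receptor encoded by Ghsr on arcuate neurons that stimulate feeding. The somatostatin receptors encoded by Sstr1, Sstr2 and Sstr3 couple to inhibitory G proteins.

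After the quality filters and assignment by hashtag, 3737 neurons carried the ARC hashtag and 3074 the PVH hashtag, with medians of 4833 and 5039 UMIs per nucleus (unique molecular identifiers, which count captured RNA molecules). A further 30 ARC nuclei were non-neuronal, with a median of 2557 UMIs. A level is the sum of a gene's UMIs over the nuclei named, divided by their UMIs in total and multiplied by 1000000 (CPM), with exact 95% Poisson intervals that cover counting error only. CPM in nuclei also depends on transcript and intron length, so levels were compared between groups of nuclei and not between genes. The hashtags were checked with marker genes. Sim1, a transcription factor of the paraventricular nucleus, was at 10.6 CPM in ARC neurons and 109 CPM in PVH neurons, and Corin, a gene of AGRP neurons, was at 42.1 and 8.07 CPM. Other markers told the sides apart less or not at all, with Agrp at 173 CPM in ARC and 152 CPM in PVH neurons, and Otp, listed for Sim1-like as well as AGRP-like neurons, at 24.5 and 19.9 CPM. Neurons of each hashtag were clustered alone, with the 8 genes kept out of the genes used for clustering, into 13 ARC and 15 PVH neuron clusters. A cluster was given a class name only from marker genes, and 7 clusters on each side without a class name are called by their 2 leading genes. Among them, the ARC cluster led by Sox10 and Zeb2 (544 nuclei) passed Sim1, Pou3f2 and Crh. The PVH cluster led by Sox10 and Mobp (492 nuclei) passed Chat, Slc5a7 and Prima1. Both also passed every oligodendrocyte (glial) marker listed, so they were not named. They stayed among the neurons, with median folds of neuronal markers of 0.978 and 0.982.

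Between the hashtags, the receptor genes Ghr, Ghsr, Prlr and Sstr1 were at least 1.5-fold higher in ARC neurons, and no member was 1.5-fold higher in PVH neurons. That is 4 of the 7 members with at least 20 UMIs in all, where 6.79% of all genes tested passed the same fold on the ARC side and 7.91% on the PVH side. Ghr was at 429 CPM in ARC neurons (419 to 438) and 275 CPM in PVH neurons (267 to 283), a ratio of 1.56 (interval 1.5 to 1.62). Prlr was at 113 and 71.8 CPM, a ratio of 1.57 (1.47 to 1.69). Both receptors thus had intervals that lay apart between the sides. Sstr1 was at 6.18 and 3.94 CPM from 120 and 66 UMIs, a ratio of 1.57 (1.15 to 2.15). Ghsr had 33 UMIs in ARC neurons and 5 in PVH neurons, or 1.70 and 0.299 CPM, a ratio of 5.69 with a wide interval of 2.21 to 18.7.

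The other 4 members stayed within 1.5-fold or were too rare. Ghrh was at 16.9 CPM in ARC and 13.0 CPM in PVH neurons, a ratio of 1.30 (1.09 to 1.55), and Sst at 90.4 and 82.2 CPM, a ratio of 1.10 (1.03 to 1.18). Sstr2 was the single tested member with a lower level in ARC neurons, at 12.4 against 16.1 CPM, a ratio of 0.773 (0.647 to 0.923). Sstr3 had 6 UMIs in ARC neurons and 9 in PVH neurons, which is too few to compare. With every nucleus thinned to 1000 UMIs, the ratio of Ghr came to 0.56 on the log2 scale, just under the fold, and Ghsr fell below the count needed, with a log2 ratio of 1.04, so 2 members were left past it. Tissue and hashtag cannot be told apart from any other difference between the 2 preparations.

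**Figure D1:**
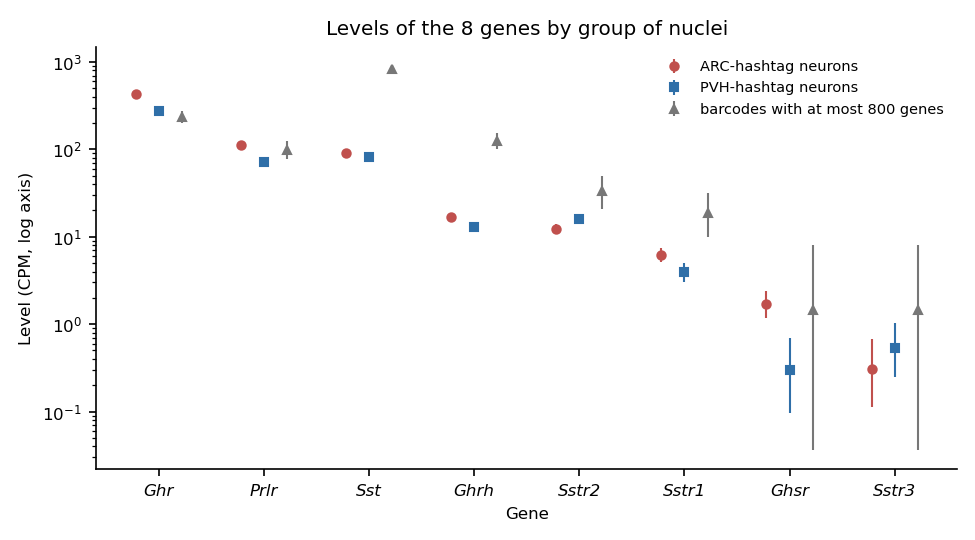
Level of each of the 8 genes (CPM, log axis) in ARC-hashtag neurons (circles), PVH-hashtag neurons (squares) and barcodes with at most 800 genes (triangles), with exact 95% Poisson intervals. Sst stands at 826 CPM and Ghrh at 125 CPM in the small barcodes, above both groups of neurons, while Ghr stands below its level in neurons there.

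The small barcodes in that plot, 1041 with at most 800 genes and a median of 621 UMIs, were removed by the filters. Sst was 9.13-fold higher in them than in ARC neurons (8.29 to 10.0) and Ghrh 7.40-fold higher (5.78 to 9.41). Ghr was lower in them, at 0.544 of its ARC level (0.463 to 0.635), and Prlr was at 0.878 (0.680 to 1.12). Sstr1 and Sstr2 were 3.02- and 2.66-fold higher in them, from 13 and 23 UMIs. Nuclei that carried both hashtags held Sst at 169 CPM. The peptide genes thus had higher levels in the small barcodes than in the filtered nuclei, and the receptor genes Ghr and Prlr did not. The part of RNA from outside the nuclei in the levels of Sst, Ghrh, Sstr1 and Sstr2 below was not tested.

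Across the ARC clusters, the members were unevenly spread. A cluster was counted when a member had at least 5 UMIs in it and at least 2-fold the level of the other ARC neurons. Of 75 pairs of member and ARC cluster with enough UMIs, 11 passed, or 14.7%, against 4.25% of all such pairs of gene and cluster (3.39% to 5.16% in single clusters). All 7 members that could be tested on the ARC side passed in 1 cluster or more, against 31.3% of all genes. On the PVH side 8 of 79 pairs passed, or 10.1% against 4.27% of all pairs (3.1% to 6.67% in single clusters), and 5 of 6 members passed somewhere, against 34.1% of all genes.

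Ghr, the growth hormone receptor gene, lies on chromosome 15 from 3317760 to 3583492 on the minus strand (GRCm38), with 9053 exonic bases in a span of 265733. Among ARC neurons it was highest in the AGRP-like cluster, whose neurons express Agrp and Npy and are known for driving hunger. In its 709 nuclei Ghr stood at 1320 CPM (1284 to 1357), against 209 CPM in the other ARC neurons, a fold of 6.33 (6.05 to 6.61), and 60.9% of all Ghr UMIs of ARC neurons fell in this cluster. A Ghr UMI was found in 703 of the 709 nuclei (99.2%), and 508 of them held 5 or more. The next cluster, led by Chat and Moxd1, held Ghr at 769 CPM (718 to 823) in 204 nuclei, 1.88-fold over the other neurons, which is under the fold of 2. No other cluster was near these values.

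The remaining 11 ARC clusters held Ghr between 72.8 and 297 CPM. The POMC-like cluster, whose neurons make the appetite-lowering precursor Pomc, was at 297 CPM and the VMH-like cluster at 261 CPM. Both dopaminergic-like clusters were low, at 143 and 130 CPM. The KNDy-like cluster, named for kisspeptin, neurokinin B and dynorphin, was lowest, at 72.8 CPM (57.4 to 91.0), with a Ghr UMI in 42 of its 212 nuclei (19.8%). The 30 non-neuronal nuclei held Ghr at 239 CPM (148 to 365) with a UMI in 33.3% of nuclei at a median of 2557 UMIs, so the shares in the lowest neuron clusters were no higher than in nuclei outside the neurons. After thinning to 1000 UMIs, a Ghr UMI was seen in 70.9% of AGRP-like, 47.1% of Chat and Moxd1, 16.7% of non-neuronal and 8.02% of KNDy-like nuclei. Of the 12 steps between neighbours in the order of ARC clusters, 4 exceeded counting error, the first being from AGRP-like to Chat and Moxd1 (ratio 1.72, 1.59 to 1.85).

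In PVH neurons Ghr was highest in Sim1-like clusters. Sim1-like cluster 12, led by Rxfp2 and Eya4, held Ghr at 1388 CPM (1294 to 1487) in 102 nuclei, 5.93-fold over the other PVH neurons (5.49 to 6.39). A Ghr UMI was found in 98 of these nuclei (96.1%), and 65 held 5 or more. Sim1-like clusters 11, 4 and 10 followed at 675, 590 and 550 CPM, which were 2.65-, 2.41- and 2.10-fold over the others. The other Sim1-like clusters did not share this level, with 244 CPM in cluster 8, 190 CPM in cluster 14 and 123 CPM in cluster 6. Over all 7 Sim1-like clusters Ghr stood at 485 CPM (468 to 503) against 142 CPM in the remaining PVH neurons. The lowest PVH level, 49.5 CPM, was in the cluster led by Fbxw13 and Nr4a2. Of the 14 steps between neighbours, 5 exceeded counting error.

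The hashtag threshold mattered for this cluster. With a positive quantile of 0.99 in place of 0.8, 407 PVH nuclei remained, 14 of the 102 nuclei kept the PVH hashtag, and 8 of them fell in a cluster of 305 nuclei in which Ghr was lower than in the rest (log2 fold -0.97). The 14 nuclei themselves still held Ghr at 1023 CPM (837 to 1237), 4.03-fold over the other PVH nuclei kept (3.26 to 4.95). The 212 AGRP-like nuclei that kept the ARC hashtag held Ghr at 1188 CPM (1131 to 1247), 4.44-fold over the other ARC nuclei kept (4.15 to 4.76), which is past the fold of 2 but smaller than the 6.33-fold at the quantile of 0.8.

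**Figure D2:**
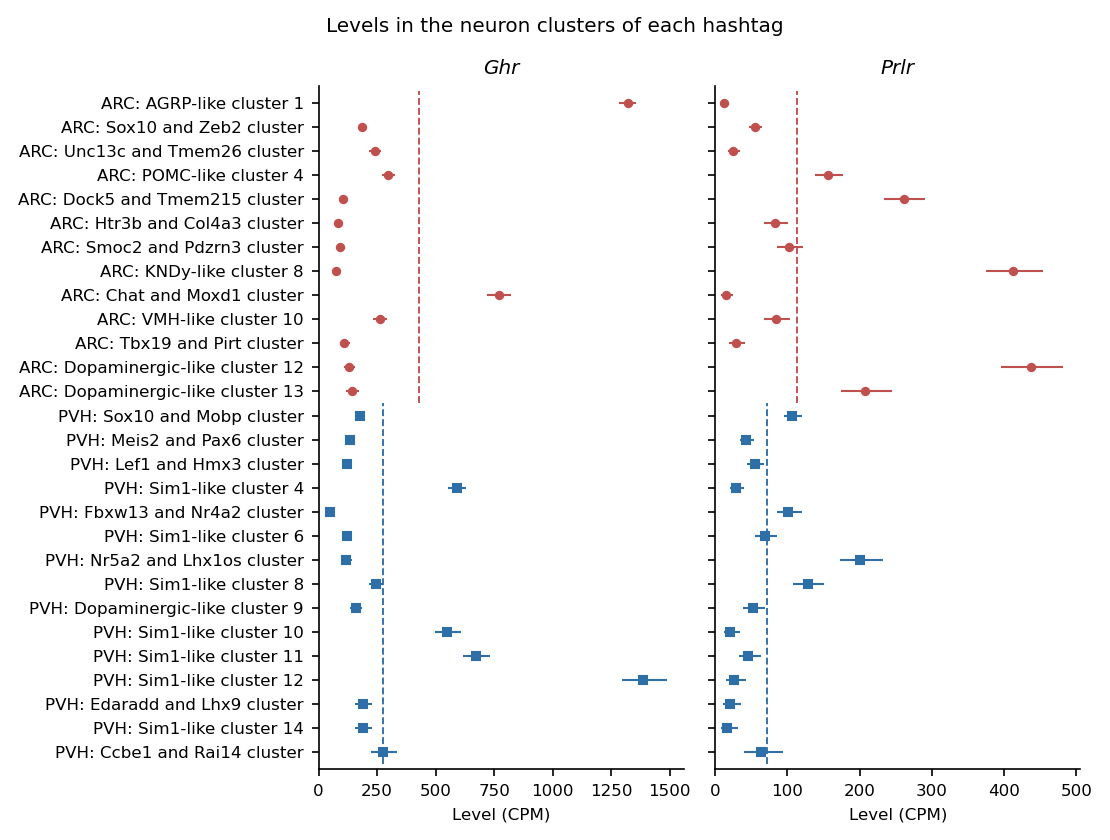
Level of Ghr (left) and Prlr (right) in CPM in each neuron cluster, with exact 95% Poisson intervals. Circles are ARC clusters, squares are PVH clusters, and dashed lines mark the level over all neurons of that hashtag. Ghr stands at 1320 CPM in the AGRP-like cluster and 1388 CPM in Sim1-like cluster 12, and Prlr stands highest in Dopaminergic-like cluster 12 (437 CPM) and the KNDy-like cluster (413 CPM).

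The gene Ccdc152 lies 14234 bases beyond the end of Ghr on the same strand, and Selenop lies further on the opposite strand. Both were among the 10 leading genes of the AGRP-like cluster, with 23 of the 41 Ccdc152 UMIs and 27 of the 48 Selenop UMIs of all neurons. In each of the 28 clusters their UMIs came to at most 1.79% and 1.49% of the UMIs of Ghr. Whether transcripts of Ghr were counted for its neighbours was not tested.

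Prlr, the prolactin receptor gene, lies on chromosome 15 from 10177238 to 10349180 on the plus strand, where it overlaps the gene model Gm21973 on the same strand, so reads of the 2 may have been split. Its ARC pattern ran through other clusters than that of Ghr. Dopaminergic-like cluster 12, which holds Th and the dopamine transporter gene Slc6a3, had Prlr at 437 CPM (396 to 482) in 182 nuclei, 4.53-fold over the other ARC neurons (4.06 to 5.04). The KNDy-like cluster had 413 CPM (375 to 454) in 212 nuclei, 4.31-fold (3.87 to 4.79). These 2 levels did not differ beyond counting error. The cluster led by Dock5 and Tmem215 followed at 261 CPM, 2.55-fold (2.26 to 2.86), and together the 3 clusters held 18.7%, 19.9% and 15.5% of the Prlr UMIs of ARC neurons.

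Prlr stood at 207 CPM in Dopaminergic-like cluster 13 and 157 CPM in the POMC-like cluster, 1.89- and 1.44-fold over the other neurons. It was lowest in the AGRP-like cluster, at 12.5 CPM (9.22 to 16.6) or 0.0907 of the level in the other ARC neurons, and in the Chat and Moxd1 cluster, at 14.8 CPM. The share of nuclei with a Prlr UMI was 83.0% in Dopaminergic-like cluster 12, 77.8% in the KNDy-like cluster and 6.06% in the AGRP-like cluster, and 1 of the 30 non-neuronal nuclei held a Prlr UMI. Of the 12 steps between ARC neighbours 6 exceeded counting error, more than for any other member.

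In PVH neurons Prlr was highest in the cluster led by Nr5a2 and Lhx1os, at 201 CPM (173 to 232) in 197 nuclei, 3.12-fold over the other PVH neurons (2.65 to 3.65). This cluster also held Slc6a3, Slc18a2 and Lhx1 from the dopaminergic list but did not pass for Th, so it was left unnamed. Dopaminergic-like cluster 9 of the PVH side, which holds Th, had Prlr at 52.4 CPM, against 437 and 207 CPM in the dopaminergic-like clusters of the ARC side. The 5 clusters with the lowest PVH levels included Sim1-like clusters 4, 10, 12 and 14, at 29.1, 20.4, 25.6 and 16.3 CPM. With the 0.99 quantile 9 of the 197 nuclei kept the PVH hashtag, at 77.8 CPM from 5 UMIs (25.3 to 182). With 3000 variable genes the cluster that held most of its nuclei had a log2 fold of 0.27, so the PVH call of Prlr rests on the cut of this cluster.

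A RefSeq promoter window of Prlr (GRCm38.p6, 250 bases before a transcript start) holds the letters TTCNNNGAA, the core of the sites that Stat5 binds. It is shown because Stat5 is the factor downstream of this receptor and of Ghr. The match is 110 bases before a start inside the Prlr gene, at chr15:10223785-10223814 on the plus strand, with the match in capitals.
Prlr: ggcaaaatgagTTCTAGGAAtaagggatat
The letters were searched on both strands of 12 windows of 7 members, and this was the only match, with none in Ghr. They occur in 7.02% of all 32851 windows of this length.

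Ghr and Prlr were thus high in different clusters. Over the 28 neuron clusters of both sides, the correlation of their log2(CPM + 1) values was -0.61, given as a description over clusters that share 1 library. The AGRP-like cluster and the Chat and Moxd1 cluster had the first and second highest Ghr and the 2 lowest Prlr levels of the ARC side. The KNDy-like cluster had the lowest Ghr and the second highest Prlr.

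**Figure D3:**
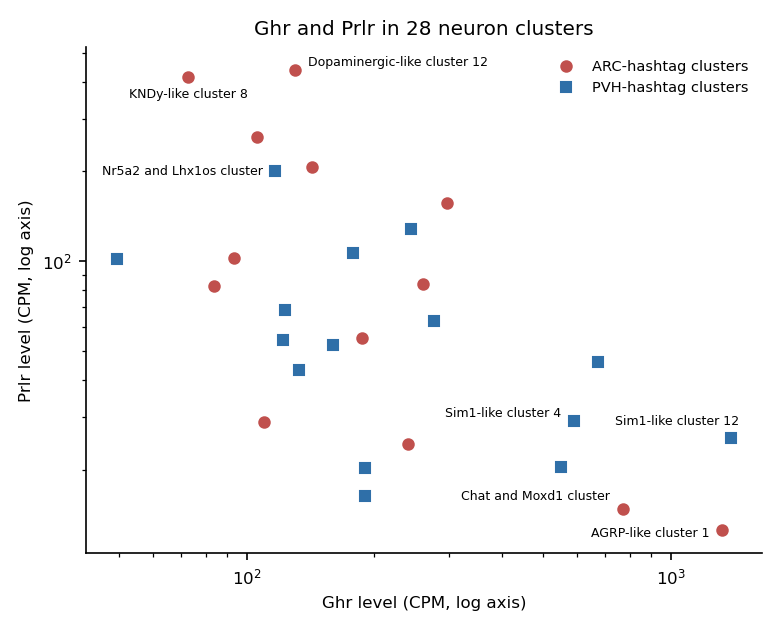
Level of Prlr against level of Ghr (CPM, both axes logarithmic) in the 28 neuron clusters, circles for ARC and squares for PVH clusters, with 7 clusters named. Clusters with Ghr above 500 CPM all lie below 50 CPM of Prlr, and the 5 clusters above 200 CPM of Prlr lie below 150 CPM of Ghr.

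The genes that act with these receptors were counted from a list of 11. Of the 7 with at least 20 UMIs, 3 were at least 1.5-fold higher in ARC neurons and 1 in PVH neurons, where 6.79% and 7.91% of all genes tested were. Of the 11 genes of the list, 6 passed the fold of 2 in some cluster, and each of the 6 did so in an ARC cluster. On the ARC side alone 31.3% of all genes with enough UMIs passed, and on the PVH side alone 34.1%. The share of all genes that passed on either side was not computed. The hormone genes Gh and Prl had 0 UMIs in the neurons of both sides, where 3 UMIs would be 0.155 CPM in ARC and 0.179 CPM in PVH neurons. Ghrhr, the receptor gene for growth hormone-releasing hormone, had 1 UMI in all. Stat5a was at 10.9 CPM in ARC and 5.44 CPM in PVH neurons, a ratio of 2.00 (1.56 to 2.59). Socs2, an inhibitor gene that growth hormone induces, was at 53.1 and 27.7 CPM, a ratio of 1.92 (1.72 to 2.15), and Cish, another such gene, at 3.5 and 2.21 CPM. Igf1, which encodes the growth factor released under growth hormone, was higher in PVH neurons, at 4.06 against 1.75 CPM.

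Genes of this list passed in clusters high and low in Ghr. In Sim1-like cluster 12 of the PVH side, Stat5a stood at 39.3 CPM, 9.33-fold over the other PVH neurons (5.55 to 15.2), and Stat5b at 396 CPM, 2.60-fold (2.26 to 2.98). Igf1 was 7.15-fold higher there from 14 UMIs (3.67 to 13.0) and Cish 4.31-fold from 5 UMIs (1.31 to 11.1). In the AGRP-like cluster Socs2 was at 98.5 CPM, 2.35-fold over the other ARC neurons (2.07 to 2.67), and Cish passed the fold too. No gene of the list passed in the Chat and Moxd1 cluster, which had the second highest Ghr of the ARC side. The KNDy-like cluster, high in Prlr and low in Ghr, passed for Stat5a and Stat5b. Stat5a also passed in Sim1-like clusters 8 and 11, and Igf1 in the Unc13c and Tmem26, Smoc2 and Pdzrn3, Lef1 and Hmx3, and Edaradd and Lhx9 clusters. Jak2, the kinase of both receptors, passed in no cluster and was highest in the POMC-like cluster at 1.74-fold (1.44 to 2.09). Gpr101, a receptor gene linked to growth hormone excess, had its highest fold in the Unc13c and Tmem26 cluster at 55.0 CPM, 3.72-fold (2.86 to 4.79). It also passed in the Smoc2 and Pdzrn3 cluster and in Sim1-like cluster 10 of the PVH side.

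Ghsr, the ghrelin receptor gene (chromosome 3, 27371351 to 27378010, plus strand), was rare. Its 33 UMIs in ARC neurons came from 32 of 3737 nuclei, and 12 of them fell in the AGRP-like cluster, at 3.13 CPM (1.62 to 5.46) against 1.35 CPM in the other ARC neurons. That fold of 2.32 had an interval of 1.04 to 4.93, and without the 1 nucleus that held 2 UMIs it came to 0.95 on the log2 scale, under the fold. With nuclei thinned to 1000 UMIs it came to 0.095 and with the 0.99 quantile to 0.36 on that scale, and the call was lost under 6 of 14 alternatives. The 14 include 2 set on the same counts, a fold of 3, where the call had to be lost, and a fold of 1.5, where it had to stay. The clusters led by Dock5 and Tmem215 (4 UMIs), KNDy-like (3) and led by Chat and Moxd1 (3) had levels of 3.07, 2.84 and 2.77 CPM, which did not differ from that of the AGRP-like cluster beyond counting error. In 5 of the 13 ARC clusters no Ghsr UMI was found. A list of 5 genes was set beside Ghsr, 4 of ghrelin signalling and Lepr, the leptin receptor gene, and 4 of the 5 could be tested between the sides. Lepr, the only one of them to pass toward ARC neurons, was 4.57-fold higher in ARC neurons (3.87 to 5.43) and passed in the AGRP-like, POMC-like, and Tbx19 and Pirt clusters, with 112 CPM in the AGRP-like cluster. Ghrl, the ghrelin gene itself, had 8 UMIs in ARC and 18 in PVH neurons, a ratio of 0.383 (0.144 to 0.926) past the fold toward PVH neurons. Mrap2 and Gnaq stayed within 1.5-fold. Over all genes tested, 6.79% passed toward ARC and 7.91% toward PVH neurons.

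Ghrh lies on chromosome 2 from 157329497 to 157347506 on the minus strand. In ARC neurons it was concentrated in the Chat and Moxd1 cluster, which held 86 of 328 UMIs (26.2%) in 204 nuclei. Its level there was 79.5 CPM (63.6 to 98.2), against 13.2 CPM in the other ARC neurons, a fold of 6.02 (4.65 to 7.73). The other 12 ARC clusters held between 6.14 and 24.5 CPM, and Dopaminergic-like cluster 12 came second, at 24.5 CPM (15.6 to 36.8). The step between these 2 clusters (ratio 3.24, 2.03 to 5.38) was the only one of 12 that exceeded counting error. The 30 non-neuronal nuclei held 0 Ghrh UMIs, where 3 UMIs would be 34.2 CPM. With the 0.99 quantile the 78 nuclei that kept the ARC hashtag held Ghrh at 102 CPM (75.0 to 136), 8.41-fold over the rest.

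Few nuclei held much Ghrh. A Ghrh UMI was found in 286 ARC neurons (7.65%), 29 held 2 or more, 5 held 3 or more and 2 held 5 or more, with a highest value of 8. Of the 29 nuclei 15 were in the Chat and Moxd1 cluster, as were 4 of the 5 and both of the 2. In that cluster 59 of 204 nuclei (28.9%) held a UMI, against 4.37% of AGRP-like nuclei. In PVH neurons no nucleus held more than 2 UMIs. There Sim1-like cluster 10 was highest at 25.9 CPM from 19 UMIs, 2.09-fold over the others (1.23 to 3.35), and none of the 14 steps between PVH clusters exceeded counting error. This call was lost under 8 of the 14 alternatives to the clustering, filters and threshold. Among the 14, on the same counts, a fold of 3 had to lose the call and a fold of 1.5 had to keep it.

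The 29 ARC nuclei with 2 or more Ghrh UMIs were set against the 3451 ARC neurons with none. Of the other 7 members, Prlr alone had an interval off 1, at 36.8 CPM from 6 UMIs against 114 CPM, a ratio of 0.323 (0.119 to 0.705). Against other neurons of the same clusters, weighted by where the 29 nuclei lie, this became -0.68 on the log2 scale with an interval that reached 0. Ghr stood at 497 against 428 CPM, a ratio of 1.16 (0.921 to 1.44), and no UMI of Ghsr or Sstr3 was found in the 29 nuclei. Of transmitter genes, Chat, which makes acetylcholine, was at 61.3 CPM against 5.49 CPM, a ratio of 11.2 (5.19 to 21.4), and it also names the cluster that holds most of these nuclei. Th, of dopamine synthesis, had a ratio of 3.96 (1.43 to 8.80) and the enkephalin gene Penk 3.30 (1.2 to 7.31), each from 6 UMIs. The galanin gene Gal had a ratio of 2.16 (1.33 to 3.32) and Gad2, of GABA synthesis, 1.54 (1.04 to 2.19). Other genes of the same transmitters had intervals that held 1, with ratios of 1.25 for Gad1 (0.661 to 2.14), 0.486 for Slc32a1 (0.0999 to 1.43), 1.59 for Slc6a3 (0.0396 to 9.14) and 0.204 for Slc18a2 (0.00516 to 1.14), the last 2 from 1 UMI each. The ratios of the transmitter genes were not weighted by cluster. The 16 PVH nuclei with 2 or more Ghrh UMIs showed no member with an interval off 1.

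Sst lies on chromosome 16 from 23889573 to 23890958 on the minus strand. The RefSeq promoter windows of Sst and Sstr2 both hold the palindrome TGACGTCA, the cyclic AMP response element, which is the textbook regulatory site of the somatostatin gene. They are shown for that reason, with the palindrome in capitals. In Sst it lies 48 bases before the RefSeq start, at chr16:23890874-23890903 on the minus strand, inside an exon of the longer GENCODE model. In Sstr2 it lies 58 bases before the start, at chr11:113619258-113619287 on the plus strand.
Sst: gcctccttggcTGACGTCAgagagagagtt
Sstr2: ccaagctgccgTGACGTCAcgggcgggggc
The palindrome occurs in 1.55% of all 32851 windows, and 7 of the 8 members had a window to search.

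The level of Sst was nearly flat over clusters. It was at 171 CPM (151 to 194) in the ARC cluster led by Unc13c and Tmem26, against 83.8 CPM in the other ARC neurons, a fold of 2.04 (1.78 to 2.33), and between 66.6 and 95.5 CPM in the other 12 ARC clusters. The step below the first cluster was the only one beyond counting error. The 3 ARC nuclei with 5 or more Sst UMIs were all in that cluster, and leaving out the 1 with 13 UMIs brought the log2 fold to 0.96, under the call. A Sst UMI was found in 36.7% of ARC neurons and in 12 of 30 non-neuronal nuclei (40.0%, 22.7 to 59.4), whose median depth was lower, so the share over all ARC neurons was not above that in nuclei outside the neurons and is not read as expression. The share in the Unc13c and Tmem26 cluster, 52.4% (46.5 to 58.3), overlapped the interval of the non-neuronal nuclei. The non-neuronal level, 159 CPM (87.1 to 267), was close to that of the leading cluster.

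In PVH neurons Sst ranged from 49.6 to 113 CPM and passed in none of the 15 clusters. Sim1-like cluster 12 was highest, at 113 CPM (87.2 to 143), and held both PVH nuclei with 5 or more Sst UMIs. These 2 nuclei held 46 Ghr UMIs, or 2370 CPM, which is a count from 2 nuclei of the cluster already highest in Ghr.

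**Figure D4:**
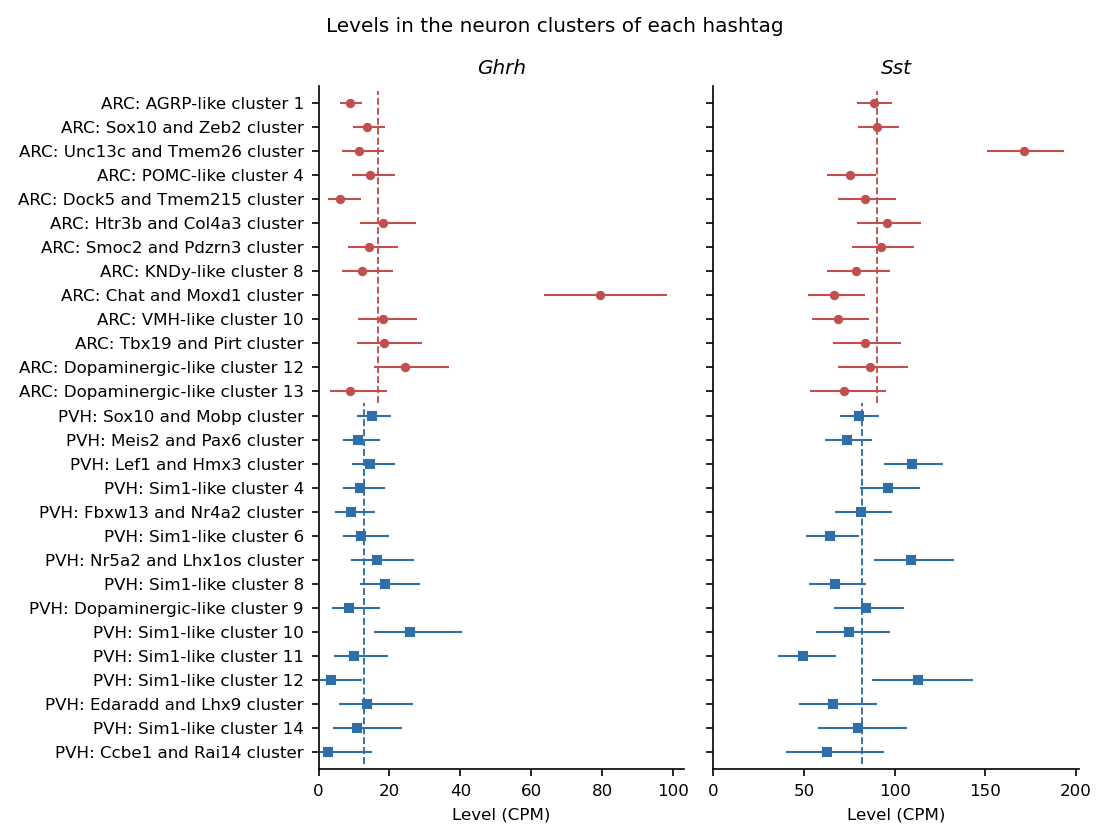
Level of Ghrh (left) and Sst (right) in CPM in each neuron cluster, with exact 95% Poisson intervals. Circles are ARC clusters, squares are PVH clusters, and dashed lines mark the level over all neurons of that hashtag. Ghrh stands apart in the Chat and Moxd1 cluster (79.5 CPM) and Sst in the Unc13c and Tmem26 cluster (171 CPM). The other ARC clusters lie between 6.14 and 24.5 CPM of Ghrh and between 66.6 and 95.5 CPM of Sst. PVH clusters lie between 2.73 and 25.9 CPM of Ghrh and between 49.6 and 113 CPM of Sst.

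Nuclei with 2 or more Sst UMIs, 289 with the ARC and 243 with the PVH hashtag, lay in all 13 and all 15 neuron clusters. In the ARC nuclei Prlr was at 94.3 CPM against 114 CPM in neurons without Sst UMIs, a ratio of 0.825 (0.691 to 0.978). Weighted by cluster this ratio turned to 0.02 on the log2 scale, above 0, with an interval that held 0. In the PVH nuclei Ghr was at 312 against 265 CPM, a ratio of 1.18 (1.07 to 1.30), which the same weighting also took to an interval holding 1. The vesicular transporter genes differed in the ARC nuclei, with Slc32a1 of GABA neurons at 54.8 against 35.9 CPM and Slc17a6 of glutamate neurons at 25.5 against 46.7 CPM, ratios of 1.53 (1.2 to 1.93) and 0.545 (0.385 to 0.752). In the same nuclei the GABA synthesis genes Gad1 and Gad2 had ratios of 1.13 (0.919 to 1.39) and 1.03 (0.890 to 1.2), with intervals that held 1. So did the PVH nuclei for Slc32a1, at 1.09 (0.806 to 1.45), and for Slc17a6, at 0.839 (0.674 to 1.04).

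The receptor genes for somatostatin were low, and Sstr1 and Sstr2 shared the cluster with the highest level on each side. Sstr1 (chromosome 12, 58211772 to 58214444, plus strand) was at 17.0 CPM (11 to 25.1) from 25 UMIs in the Unc13c and Tmem26 cluster, 3.20-fold over the other ARC neurons (1.98 to 5.02). It was at 12.3 CPM in the Dock5 and Tmem215 cluster, 2.14-fold (1.18 to 3.64). Sstr2 (chromosome 11, 113619342 to 113626028, plus strand), whose locus overlaps Slc39a11 on the opposite strand, was at 27.2 CPM (19.4 to 37.0) from 40 UMIs in the Unc13c and Tmem26 cluster, 2.42-fold (1.68 to 3.42). It was at 24.6 CPM in the KNDy-like cluster, 2.10-fold (1.34 to 3.16), and lowest in the POMC-like cluster at 5.47 CPM. The Unc13c and Tmem26 cluster was thus first in Sst, Sstr1 and Sstr2 on the ARC side.

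On the PVH side Sim1-like cluster 4, which like Sim1-like cluster 6 passed for Crh, was first in both receptor genes. Sstr1 was at 11.8 CPM from 17 UMIs there, 3.68-fold over the other PVH neurons (1.98 to 6.49), and Sstr2 at 31.9 CPM from 46 UMIs, 2.19-fold (1.56 to 3.01). No step between neighbours in the order of clusters exceeded counting error for Sstr1, Sstr2 or Sstr3 on either side. Thinned to 1000 UMIs, the ARC folds of Sstr1 and Sstr2 came to 0.70 and 0.21 on the log2 scale, under the call. Over 14 alternatives, the log2 fold of the leading PVH cluster ran from 1.34 to 3.70 for Sstr1 and from 0.019 to 1.52 for Sstr2. Sstr3 (chromosome 15, 78537008 to 78544685, minus strand) had at most 2 UMIs in any ARC cluster and 3 in any PVH cluster, so its pattern was not detectable at this depth.

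**Figure D5:**
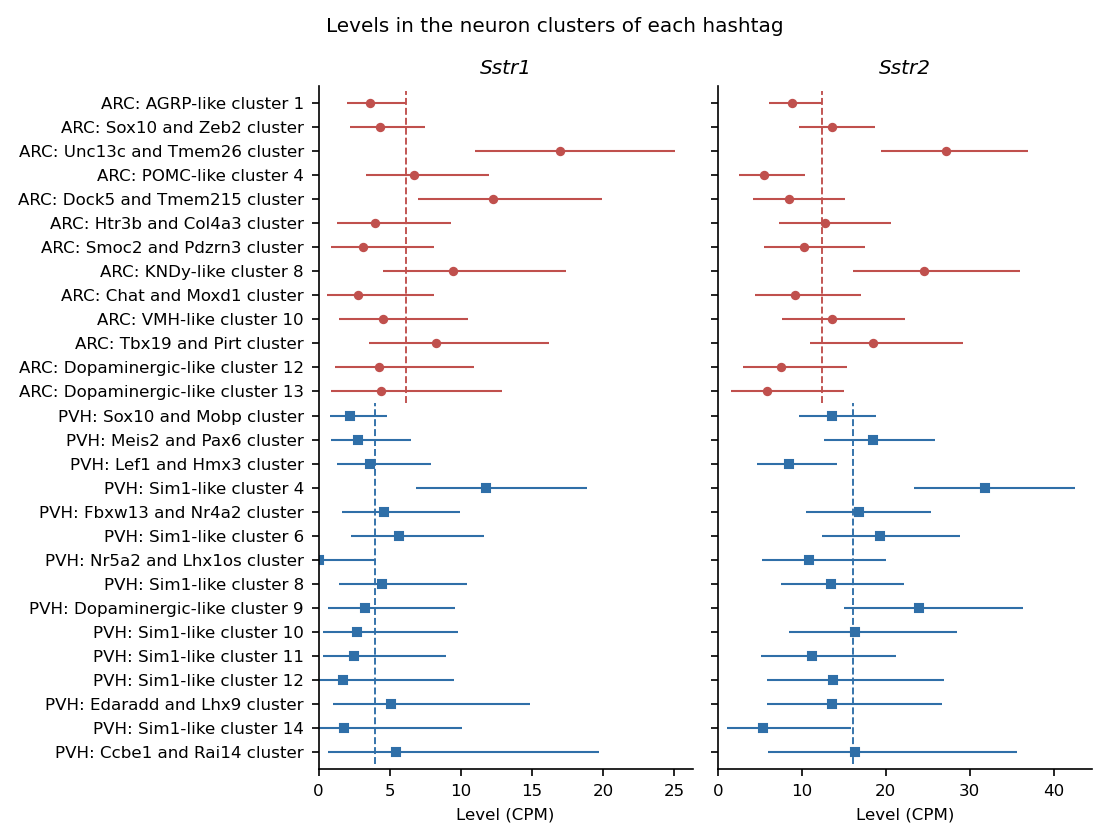
Level of Sstr1 (left) and Sstr2 (right) in CPM in each neuron cluster, with exact 95% Poisson intervals. Circles are ARC clusters, squares are PVH clusters, and dashed lines mark the level over all neurons of that hashtag. The Unc13c and Tmem26 cluster is highest on the ARC side (17.0 and 27.2 CPM) and Sim1-like cluster 4 on the PVH side (11.8 and 31.9 CPM), with intervals that overlap those of their neighbours.

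Of 9 other genes of somatostatin signalling, 7 could be tested between the sides. Sstr5 passed toward ARC neurons, from 15 against 7 UMIs, a ratio of 1.85 with an interval that held 1 (0.709 to 5.36). The other 6 stayed within 1.5-fold. Over all genes tested, 6.79% passed toward ARC and 7.91% toward PVH neurons. Cort, the gene of the related peptide cortistatin, had 3 UMIs in all and Sstr4 had 4. The G protein genes Gnai1, Gnai2 and Gnao1 passed in no cluster. Of the potassium channel genes that somatostatin receptors open, Kcnj3 passed in the POMC-like cluster, at 411 CPM and 2.30-fold (2.11 to 2.50), and Kcnj6 and Kcnj9 passed in none. Beside these lists, the median log2 ratio of ARC over PVH was 0.33 for the somatostatin list, 0.15 for the growth hormone and prolactin list, 0.07 for the ghrelin list and 0.04 over all genes tested.

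The genes most like each member over the 28 clusters were found by the Pearson correlation of log2(CPM + 1), among 12266 genes with at least 200 UMIs. The values are the highest of 12266 over 28 clusters, and how high unrelated genes would reach was not tested. The genes closest to Ghr were Csgalnact1 (0.71), Smc6 (0.69), Kcnip1 (0.68), Gm11714 (0.67) and Dnm3 (0.65). Those closest to Prlr were Dnajc21 (0.78), Csrnp3 (0.75), Trpc6 (0.73), Zmiz1 (0.71) and Gm32014 (0.71), of which Dnajc21 lies at 10446756 to 10470516 on chromosome 15, near Prlr. The first for Sstr2 was Csmd1 (0.74), for Sst Zcchc4 (0.70) and for Ghrh Gm44129 (0.69). Ghsr, Sstr1 and Sstr3 had under 200 UMIs themselves, and their closest genes were Rasgrp1 (0.71), Psmd13 (0.68) and March6 (0.63). Between members, the next strongest correlation after that of Ghr and Prlr was 0.36 for Sstr1 and Sstr2.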

How the data were processed

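The matrix deposited by the authors holds whole-number UMI counts for 32285 genes in 11409 barcodes, with no normalization, with the 2 hashtags as rows of the same matrix. The paper and the submitters' notes name Cell Ranger 5.0 and Seurat 4, the matrix header names Cell Ranger 4.0.0, and the notes name the build mm10. The paper's filters were applied (over 800 and under 5000 genes, at most 12000 UMIs, at most 1% mitochondrial counts, genes in at least 3 nuclei), followed by HTODemux at a positive quantile of 0.8. This left 10170 nuclei, of which 3767 were ARC, 3074 PVH, 944 had both hashtags and 2385 none. Doublets were removed by hashtag only. Sequencing depth ran from 964 to 12000 UMIs per nucleus past the filters, and from 997 to 11970 UMIs in those assigned to 1 hashtag, which limits rare genes such as Ghsr and Sstr3.

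Each side was log-normalized (scale factor 10000) and clustered with Leiden (resolution 0.55, 2000 variable genes, 30 components, 20 neighbours) using Seurat 5.3.0 and leidenbase 0.1.32 under R 4.3.3. The 8 members were removed from the variable genes, which had held 4 of them on the ARC side and 2 on the PVH side. To be named, a cluster had to pass 1.5-fold with 3 UMIs for the first marker of a class and for at least 3 of its markers, and pass no non-neuronal list in full. These thresholds were set after the data were seen. Sums, exact intervals and ratios (binomial) were computed with numpy 2.4.6 and scipy 1.17.1 (Python 3.11.15), and the fold step was tested on simulated data. Positions are from GENCODE M21 (GRCm38), which held 32235 of 32285 gene identifiers, and promoter windows from RefSeq, which gave none for Sstr1. Members, lists and marker genes were chosen with earlier results of these data known. Named genes are the 8 members, the 5 closest genes by correlation, the pathway lists and a list of 16 transmitter and related genes.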

Additional observations from a re-analysis of the deposited data

Results flagged for a closer look

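In data outside the comparisons, Sst, Ghrh, Sstr1 and Sstr2 were at higher levels than in ARC neurons, while Ghr was at 0.544 and Prlr at 0.878 of their ARC levels in the barcodes with few genes. In the 1041 barcodes with at most 800 genes, removed by the filters, Sst was at 826 CPM (760 to 896), against 90.4 CPM in ARC neurons. Ghrh was at 125 CPM (100.2 to 154) in these barcodes, against 16.9 CPM. Sstr2 was at 33.1 CPM (21.0 to 49.6) and Sstr1 at 18.7 CPM (9.96 to 32.0), from 23 and 13 UMIs. In the 944 nuclei with both hashtags, Sst was at 169 CPM (158 to 181). The cause of these levels was not tested.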

How the results depend on the processing

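Of 470 single values recomputed under 19 alternatives, 412 stayed within the interval or fold limits of the reported value and 50 moved beyond them. Another 6 were counts of pairs that changed by over 1.5 times. The last 2, past the fold or with an interval off 1 in the main setting, turned direction. One of the 2 is Ghr in the PVH cluster with its highest level, at -0.97 on the log2 scale with a positive quantile of 0.99, where 8 of its 102 nuclei fell in a merged cluster of 305. The other is Prlr in ARC nuclei with Sst UMIs, at 0.023 on the log2 scale against other neurons of the same clusters. Values that were not past such a limit also changed sign, and these were sorted by their interval alone. Prlr in PVH nuclei with Sst UMIs, for example, kept its sign in 3 of 9 alternatives. Members at least 1.5-fold higher in ARC neurons numbered 4, falling to 2 with thinned nuclei and 1 at a fold of 2. Members past the fold in an ARC cluster numbered 7, falling to 4 at a fold of 3. Those in a PVH cluster numbered 5, falling to 3 at a fold of 3 and 3 at a resolution of 0.3. For ARC nuclei with Ghrh UMIs, the 1 member with an interval off 1 became 0 with the 0.99 quantile, with thinning, at minimums of 1 and 3 UMIs, and within clusters. For PVH nuclei with Ghrh UMIs, 0 became 1 without upper limits, with thinning and with the richest nucleus left out. For ARC nuclei with Sst UMIs, 1 became 0 with thinning and at 1 UMI, and 2 at 3 UMIs. For PVH nuclei with Sst UMIs, 1 became 0 with thinning and within clusters. Leaving out the 2 clusters led by Sox10, which carry oligodendrocyte markers, was chosen after seeing the data and kept 54 of 55 values. With both hashtags clustered together, 857 of 6841 nuclei (12.5%) fell in clusters led by the other hashtag. No paired analysis was possible because the series has 1 gene expression library.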
